A study of Arabidopsis thaliana with 16 samples.

Results

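The PHE1 binding sites described here had their centres outside genes and outside the stretch just upstream of any transcriptional start site (TSS). They also lacked the textbook recognition sequence of the protein family. PHERES1 (PHE1) is a type I MADS-box transcription factor, and its sites were mapped in Arabidopsis thaliana by chromatin immunoprecipitation followed by sequencing (ChIP-seq) with an antibody against GFP. The peak regions of the 2 replicates were intersected (at least 1 bp in common, chromosomes 1 to 5), which left 2510 regions. A region was kept when its centre lay in no annotated gene and not between 1 kb upstream and 100 bp downstream of any TSS, and when the region held no exact CArG-box (2 C, 6 A or T, 2 G). These conditions left 373 intergenic sites, or 14.9% of the shared sites. Only the centre had to meet the position rule, and the whole region was clear of genes and of that stretch around each TSS at 288 sites. Of the 434 shared sites in intergenic space, 85.9% met the motif condition and 61 held an exact CArG-box. The rule used positions and sequence, and no expression value.

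The ChIP tissue was silique at 2 days after pollination, from plants in which PHE1 fused to GFP was driven by the PHE1 promoter, which is active in the endosperm. Siliques also hold embryos and maternal tissue. Each of the 2 ChIP replicates had its own input. Expression came from whole seeds at 6 days after pollination, 2 libraries per cross, always with a Ler pistillata mother. The father was a Col osd1 plant that also carried a CRISPR/Cas9 allele of PHE1 with a premature stop and a phe2 mutation (cross phe1 phe2 osd1), a Col osd1 plant (cross osd1), or a wild-type Col plant (cross wt). Plants lacking OSD1 skip the second meiotic division and make diploid pollen, so both osd1 crosses gave triploid seeds with an excess of paternal genomes, and wt gave diploid seeds. PHE1 itself had 49.04 and 49.07 RPKM (reads per kilobase of transcript, scaled to the number of mapped reads) in the phe1 phe2 osd1 libraries and 200 and 169 RPKM in the osd1 libraries, against 2.92 and 3.10 RPKM in the wt libraries. A premature stop need not remove the transcript, so this level does not measure the protein. Between 21433 and 21915 genes were above 0 in each library.

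MADS-box proteins bind DNA as dimers, and the CArG-box is the element to which most of them that have been studied bind. Type I members such as PHE1 and AGL62 act mainly in the female gametophyte and the endosperm, the nourishing tissue of the seed, where AGL62 holds back cellularization. In the compact Arabidopsis genome most transcription factor binding lies just upstream of genes, and binding far from a TSS is less often assigned to a gene. The gene named with a site below is the one with the nearest TSS, and no link between a site and that gene was measured.

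The first sequences shown are the central 120 bp of sites nearest to MADS-box genes and to GATA13. They were read from the TAIR10.1 assembly and written 5′ to 3′ on the strand of the nearest gene, with capitals at the 10-base run closest to the centre that departs from the CArG-box at exactly 1 position. They are examples of near matches at sites without an exact box, chosen after the sequences had been seen.
AGL62, 1210 bp upstream, chr5:24304111-24304230, plus strand: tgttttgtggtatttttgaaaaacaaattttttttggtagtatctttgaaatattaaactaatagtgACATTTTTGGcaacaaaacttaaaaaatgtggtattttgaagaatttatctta
AGL62, 2623 bp downstream, chr5:24307944-24308063, plus strand: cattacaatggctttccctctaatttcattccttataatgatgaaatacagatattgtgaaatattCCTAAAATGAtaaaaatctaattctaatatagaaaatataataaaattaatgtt
AGL23, 1159 bp upstream, chr1:24280118-24280237, plus strand: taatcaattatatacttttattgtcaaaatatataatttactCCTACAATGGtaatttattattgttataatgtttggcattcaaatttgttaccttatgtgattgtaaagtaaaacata
AGL92, 1081 bp upstream, chr1:11325197-11325316, minus strand: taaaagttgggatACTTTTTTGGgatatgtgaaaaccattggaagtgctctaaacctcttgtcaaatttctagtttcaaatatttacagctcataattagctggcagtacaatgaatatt
AGL90, 1845 bp upstream, chr5:9994555-9994674, minus strand: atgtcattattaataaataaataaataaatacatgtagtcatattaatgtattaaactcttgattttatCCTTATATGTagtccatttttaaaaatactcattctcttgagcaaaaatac
GATA13, 1210 bp upstream, chr2:12102402-12102521, plus strand: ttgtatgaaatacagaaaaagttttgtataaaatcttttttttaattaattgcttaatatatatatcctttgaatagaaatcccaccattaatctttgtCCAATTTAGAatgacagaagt
AGL86, 1574 bp upstream, chr1:11321061-11321180, minus strand: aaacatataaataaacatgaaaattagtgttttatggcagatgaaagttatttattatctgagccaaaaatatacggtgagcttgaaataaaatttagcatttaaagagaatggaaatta
The last of these, near AGL86, held no such run in its central 120 bp, nor did the other AGL90 sites, 2101 bp upstream and 3124 bp downstream, which are not shown.

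The second set shows a sequence that recurred at sites on different chromosomes. A family of 10 shared PHE1 sites, 7 of them among the 373, was linked by alignments of at least 60 bp and 75% identity. A 14-base run (in capitals below, with 30 bases on either side) was present word for word in the central 300 bp of 9 of the 10 sites. That window can reach past the edge of a narrow site. The centre of the run lay outside the shared region at AT5G36300 and at a promoter site near AT3G06605, which is not shown. The run was chosen after the sequences had been seen.
AT1G50650, 2692 bp upstream, chr1:18767051-18767124, minus strand: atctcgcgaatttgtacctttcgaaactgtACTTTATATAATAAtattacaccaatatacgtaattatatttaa
AT2G05690, 2167 bp upstream, chr2:2130261-2130334, plus strand: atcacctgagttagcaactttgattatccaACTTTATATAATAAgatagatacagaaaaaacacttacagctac
ORP2A, 3618 bp upstream, chr4:11869964-11870037, minus strand: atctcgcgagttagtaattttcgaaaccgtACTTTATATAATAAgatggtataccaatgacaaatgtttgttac
MIR5638b, 1649 bp upstream, chr5:14098061-14098134, plus strand: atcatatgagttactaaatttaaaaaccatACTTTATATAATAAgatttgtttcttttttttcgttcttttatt
AT5G36300, 1902 bp upstream, chr5:14318739-14318812, plus strand: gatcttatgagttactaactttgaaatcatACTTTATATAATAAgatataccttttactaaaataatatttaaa
AT5G38037, 2125 bp upstream, chr5:15181564-15181637, minus strand: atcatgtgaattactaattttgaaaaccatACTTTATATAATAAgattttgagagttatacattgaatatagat
AGL53 (a promoter site, 623 bp upstream), chr5:9527137-9527210, plus strand: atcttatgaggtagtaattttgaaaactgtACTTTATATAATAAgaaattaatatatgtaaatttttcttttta

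The sites were spread over the 5 chromosomes much as the other PHE1 sites were. Chromosomes 1 to 5 carried 88, 62, 71, 62 and 90 sites, and these made up between 13.9% (chromosome 1) and 15.8% (chromosome 4) of the PHE1 sites on each chromosome. The surroundings were poorer in genes than those of promoter sites. A median of 254 protein-coding TSSs lay within 500 kb on either side of a site, against 272 around the 1803 promoter sites and 235 around all 72644 intergenic windows of 300 bp in the genome. Fewer than 100 protein-coding TSSs surrounded 26 of the 373 sites (6.97%), as in the regions around centromeres. The same held for 32 of the 1803 promoter sites (1.77%) and for 23.9% of the intergenic windows. The position rule sets part of this, since intergenic space is larger where genes are sparse. Set against the windows, gene-poor stretches held a smaller share of the sites than of intergenic space. Peaks were called from uniquely mapped reads, and the windows were not limited to DNA where reads map uniquely. How far this sets the difference was not tested.

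**Figure D1:**
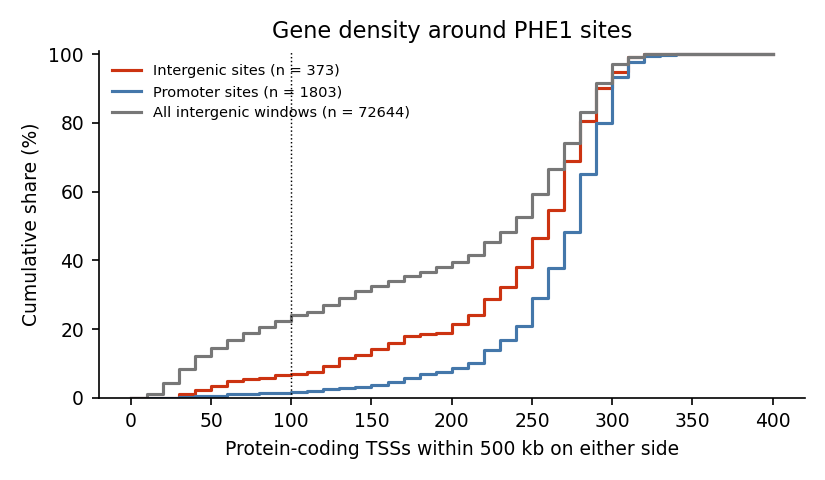
Cumulative share (%) of the 373 intergenic PHE1 sites, the 1803 promoter sites and all 72644 intergenic windows against the number of protein-coding TSSs within 500 kb on either side. The dotted line marks 100 TSSs, at or below which intergenic sites lie between the promoter sites and the windows.

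Most of the sites were upstream of the gene with the nearest TSS, although the nearest end of any gene was a 3′ end for 231 of them (61.9%). Of the 373 sites, 229 (61.4%) were upstream of the nearest TSS, and 144 sites lay beyond the 3′ end of the gene with the nearest TSS. The position rule sets part of these shares and of the distances below. It left out 1 kb before each TSS and allowed centres right next to a 3′ end. The same measures were not taken for all intergenic windows. Counted in either direction, the nearest TSS was a median of 1580 bp away (quartiles 1172 and 2278 bp). The counts fell with distance: 136 sites were between 1 and 1.5 kb away, 78 between 1.5 and 2 kb, 78 between 2 and 3 kb, 37 between 3 and 5 kb, and 9 over 5 kb, while 35 sites within 1 kb lay past the end of a short gene. The study assigned target genes within a window from 1.5 kb before a TSS to 0.5 kb after it. Around the nearest TSS, that window took in 112 of the sites (30.0%) and left out 261. The farthest site (chr5:13077582-13077879) was 7196 bp from the TSS of AT5G34849, and the next (chr3:8363869-8364052) was 6391 bp from that of AT3G23370.

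**Figure D2:**
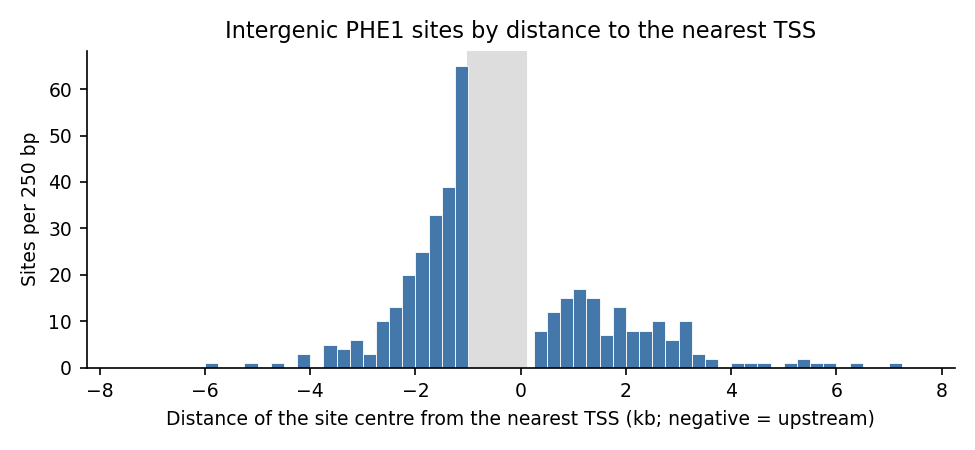
Number of intergenic PHE1 sites per 250 bp of distance from the site centre to the nearest TSS, in kb, negative upstream. The grey band marks the excluded promoter window, and the counts are highest next to its upstream edge (65 sites) and fall from there, while downstream they peak at 17 sites between 1000 and 1250 bp.

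The 1 kb limit cut through a continuous distribution. Among regions without an exact CArG-box, the 3 just inside the limit lay 1003 bp (AT2G16405), 1007 bp (PHO1;H1) and 1008 bp (AT1G56423) upstream, with widths of 237, 350 and 291 bp. The 3 just outside it lay 997 bp (AT2G21455), 995 bp (ATPMEPCRC) and 993 bp (AT2G21235) upstream, with widths of 673, 769 and 1111 bp. There were 30 such sites in the first 100 bp beyond the limit and 37 in the last 100 bp before it.

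The sites fell in 321 gaps between genes, of a median length of 3616 bp at a site. A single site was found in 274 gaps, 2 sites in 42 gaps and 3 sites in 5 gaps, so that 99 sites shared a gap with another. The 5 gaps with 3 sites included the one beyond AT3G25700, an aspartyl protease gene, with sites 2003, 2181 and 2431 bp from its TSS, the middle one 8 bp wide, and the one between AT5G28190 and AT5G28200, where all 3 sites lay more than 5 kb from any TSS. Several sites of one gap can come from 1 wide peak of the other replicate: the 373 sites derived from 359 peaks of replicate 1 and 348 peaks of replicate 2. Gaps between genes in tandem held 53.6% of the sites, gaps between divergent genes 23.6% and gaps between convergent genes 22.8%. For all intergenic windows these shares were 52.1%, 21.2% and 26.7%, and the differences were not tested.

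The sites were narrower than the PHE1 sites in promoters, with a median width of 298 bp (quartiles 206 and 478 bp) against 366 bp. A narrow region is less likely to hold an exact box, so the rule itself favours narrow regions, and the intergenic sites with an exact box had a median width of 412 bp. The underlying peaks were narrower too, at a median of 383 bp in replicate 1 and 590 bp in replicate 2, against 451 and 685 bp for promoter sites and 540 and 565 bp for intergenic sites with an exact box. A site covered a median of 92.4% of its replicate 1 peak and 56.7% of its replicate 2 peak. The widest was a 2173 bp site at chr3:7910518-7912690, centred 1301 bp upstream of TIC, a component of the circadian clock. This region reached into the promoter window of TIC. In all, 12 sites exceeded 1000 bp. At the other end, 15 sites were under 60 bp wide and the smallest was 3 bp, where the edges of neighbouring peaks met. Peak heights and scores are not part of the lists used, so widths are the only measure of the peaks.

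The sites were rich in A and T even for intergenic DNA. The central 300 bp had a median GC content of 25.7% (quartiles 23% and 28.7%), against 26.3% at promoter sites, 27% at intergenic sites with an exact CArG-box, 30.0% at sites in gene bodies, and 30.7% in all intergenic windows. In the profile across the sites, mean GC content was 25.98% within 100 bp of the centre and 29.8% between 500 and 1000 bp away. Promoter sites had the same trough (26.3%) in GC-richer surroundings (34.9%). GC content played no part in the rule.

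CArG-boxes with 1 mismatch were frequent and centred on the sites. Such a run was present in the central 300 bp of 246 of the 373 sites (66.0%), of 57.2% of the 2137 other PHE1 sites, of 34.4% of all intergenic windows and of 36.4% of all promoters (250 bp before to 50 bp after a TSS). Their density was 3.87 per kb within 100 bp of the site centre and 1.40 per kb between 500 and 1000 bp away, and intergenic windows had 1.51 per kb. The difference from windows was present at like GC content: among sequences of 23 to 26% GC, 68.6% of 102 sites and 31.7% of 7911 windows held a near match, and among those of 29 to 32% GC the shares were 66.0% of 50 sites and 37.3% of 15606 windows. The rule removed regions with an exact box only, and it placed no condition on near matches. Of the sites, 127 held no near match, 146 held 1 and 100 held more.

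**Figure D3:**
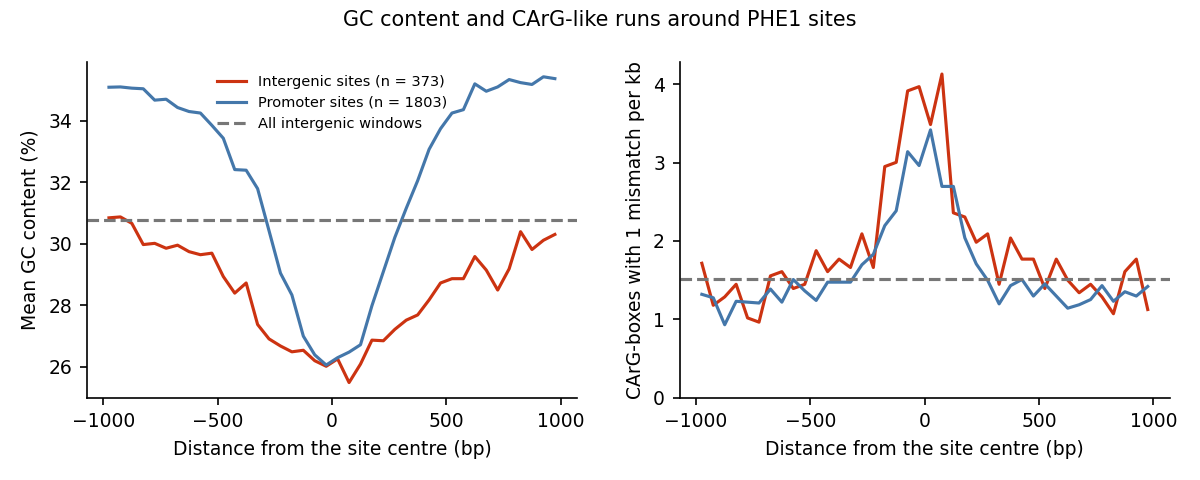
Mean GC content (%, left) and density of CArG-boxes with 1 mismatch (per kb, right) in 50 bp steps of distance from the site centre, for 373 intergenic and 1803 promoter PHE1 sites, with the mean of all intergenic windows dashed. GC content dips to about the same level in both classes, and near matches at intergenic sites average 3.87 per kb within 100 bp of the centre.

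The departing base was mostly one of the C or G letters, at the sites as in intergenic windows. In the central 200 bp of the sites, 128 near matches (48.1%) departed at the outermost C or G, 111 (41.7%) at the inner C or G, and 27 at an A or T position, with 10 at the outer, 11 at the next and 6 at the middle pair of these. Per kb, near matches that departed at the outermost position were 2.67 times as dense as in intergenic windows, those at the inner C or G 2.48 times, and those at the outer, next and middle A or T pair 2.50, 1.83 and 1.10 times. Departures at C or G were also the most frequent in intergenic windows, with 44.3% at the outermost and 41.4% at the inner position. A run of the first 8 positions of the box (2 C and 6 A or T, on either strand) was present in 96.2% of the sites, 93.7% of the other PHE1 sites and 76.5% of the intergenic windows.

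Other plant elements were searched in the same windows. The G-box (CACGTG), bound by bHLH and bZIP factors, was present in the central 300 bp of 4.29% of the sites, 4.12% of the other PHE1 sites and 3.23% of the intergenic windows. The W-box core (TTGAC), bound by WRKY factors, was found in 52.3%, 55.2% and 46.6% of these, and GAGAGA, part of the GAGA repeats bound by BPC proteins, in 16.6%, 15.8% and 15.9%. TATAAA was present in 61.1% of the sites, 61.1% of the other PHE1 sites and 51.9% of the windows. The telobox (AAACCCT), known from Arabidopsis genes that are targets of Polycomb and from ribosomal protein genes, was less frequent at the sites, with 8 of 373 (2.14%), against 3.93% of the other PHE1 sites and 7.49% of the windows. All motifs were searched on both strands; G-boxes were present in 6.47% of all promoters, W-box cores in 49.5%, GAGAGA in 28.5%, TATAAA in 48.8% and teloboxes in 9.94%. An exact CArG-box outside the region but inside the 300 bp window was seen at 4 of the 373 sites.

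A part of the sites resembled PHE1 sites elsewhere in the genome. Of the 373, 55 (14.7%) aligned with another shared site that lay at least 300 bp away, against 16.4% of the 61 intergenic sites with an exact box, 5.55% of the promoter sites and 2.93% of the sites in gene bodies. Outside gene-poor regions the share was 43 of 347 sites (12.4%), against 5.31% of promoter sites. There were 60 families of linked sites, of which 11 held at least 2 of the intergenic sites. The largest in this respect joined 12 sites on 4 chromosomes, 8 of them among the 373 and 4 of these in gene-poor regions, with a median identity of 85.3%.

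The share of genomic copies that carried a site differed between families. The 14-base run printed for the family of 10 sites occurred 164 times on chromosomes 1 to 5, and 12 copies (7.32%) lay in a shared PHE1 site, 7 of them in the sites described here, while shared sites covered 0.903% of the chromosomes. Peaks of replicate 1 held 13 of the copies and peaks of replicate 2 held 23. In the family of 12 sites, a 14-base run shared by 4 of them occurred 9 times, and 4 copies (44.4%) lay in a shared site. In a family of 6 sites, a run shared by 3 occurred 14 times, and 3 copies (21.4%) lay in a shared site. For the longer aligned block of a family, 13 of 162 copies carried a shared site in the family of 10. In the families of 12 and 6 sites these were 7 of 22 and 5 of 13 copies, so the order of these 2 families depends on the sequence counted. The submitters kept only uniquely mapped reads, and how well reads map to the copies was not measured. How many other copies were bound was not tested. The runs were selected from the bound sites, so their shares in them are a description. No transposon annotation was used, and the sequence families are not named here.

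The 373 sites had 327 different nearest genes. Of these, 252 were protein-coding (77.1%, against 72.4% of all annotated genes), 29 were lncRNA genes, 28 were pseudogenes of either class and 7 were miRNA genes (2.14%, against 0.860% of annotated genes). The expression table held the 252 protein-coding genes. It listed 31 of them at 0 RPKM in all 6 libraries, and 201 passed the filter of a mean of at least 0.5 RPKM in at least 1 cross.

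Genes nearest to the sites were upregulated in osd1 seeds more often than genes at large. In osd1 vs. wt, 66 of the 201 tested nearest genes rose (32.8%), against 12.6% of all 20051 genes tested, and 27 fell (13.4%), against 13.4% of all (limma on log2(RPKM + 0.5), Benjamini-Hochberg adjusted p under 0.05 over all genes). On the log2 scale the median difference was 0.28 for the nearest genes and 0.01 for all genes. A gene that entered only through its level in triploid seeds had to be higher there, and 27 of the 201 did so, 16 of which rose. Among the 174 that reached 0.5 RPKM in wt, 50 rose (28.7%), against 10.9% of all such genes. Over all genes of the table, expressed or not, the shares were 66 of 252 (26.2%) against 9.28% upwards and 27 of 252 (10.7%) against 9.85% downwards. The counts rested on both wt libraries: leaving out wt replicate 1 or 2 lowered the number that rose to 21 or 25 of 201, while the share of all genes that rose was 3.54% or 5.13%. Fewer cells of a type and less RNA per cell cannot be told apart in whole seeds.

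**Figure D4:**
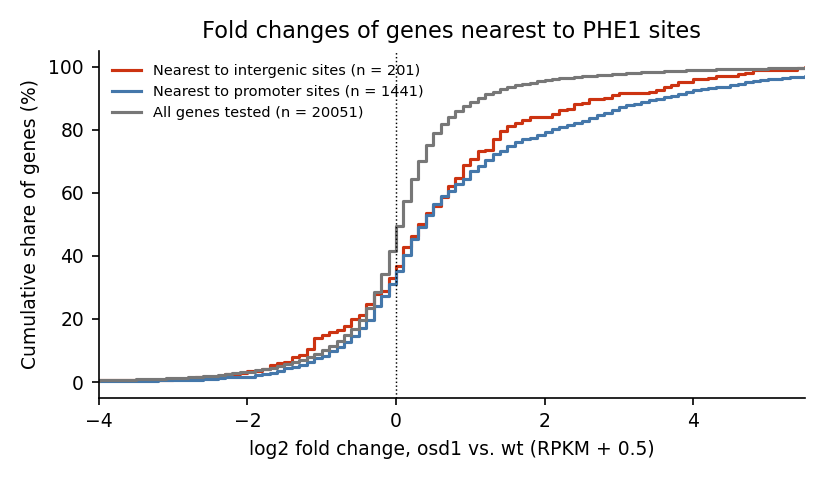
Cumulative share (%) of genes against the log2 fold change in osd1 vs. wt seeds, for 201 genes nearest to intergenic PHE1 sites, 1441 genes nearest to promoter sites and all 20051 genes tested. The curve for intergenic sites lies to the right of all genes above 0 (median 0.28 against 0.01) and near that of promoter sites.

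The triploid seeds whose father carried the phe1 and phe2 mutations gave like counts. In phe1 phe2 osd1 vs. wt, 63 of the 201 nearest genes rose, against 12.1% of all genes tested, and 28 fell, against 12.5% of all (limma, adjusted as above), with a median log2 fold change of 0.30 against 0.01 for all genes. This comparison uses the same wt libraries as osd1 vs. wt, so the 2 counts are not independent. Without wt replicate 1 or 2, 17 or 20 of the 201 rose, against 2.91% or 4.33% of all genes.

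The markers of seed compartments differed between these libraries as well. Summed RPKM of the embryo genes LEC1, FUS3 and LEC2 was 111 and 85.3 in phe1 phe2 osd1 and 51.3 and 122 in osd1, against 245 and 235 in wt. That of the seed coat genes BAN, DFR and TT10 was 876 and 945 in phe1 phe2 osd1 and 906 and 1090 in osd1, against 599 and 719 in wt. The endosperm genes YUC10, WRKY10, RGE1 and IKU2 summed to 22.5 and 37.0 in phe1 phe2 osd1 and 41.9 and 30.8 in osd1, against 36.5 and 41.5 in wt, and WRKY10 was listed at 0 in 1 wt library. Members of a list did not move together: RGE1 had 13.1 and 5.76 RPKM in phe1 phe2 osd1 and 9.41 and 14.2 RPKM in osd1, against 32.1 and 35.5 RPKM in wt, whereas YUC10, WRKY10 and IKU2 were higher in every triploid library than in wt. TT10 likewise was lower in every triploid library, with 91.0 and 117 RPKM in phe1 phe2 osd1 and 59.9 and 139 RPKM in osd1, against 170 and 167 RPKM in wt, while BAN and DFR were higher in all of them. These markers were picked after the values had been seen, and their part in the counts of nearest genes was not tested.

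The share of nearest genes that rose differed with the distance of the site and with the presence of a promoter site. For sites up to 1500 bp from the TSS, 42 of 103 tested genes rose in osd1 vs. wt (40.8%) and 9 fell, for sites between 1500 and 2500 bp away 19 of 74 rose (25.7%) and 15 fell, and for sites over 2500 bp away 9 of 36 rose (25%) and 5 fell. Sites upstream of the TSS had 43 of 137 genes that rose (31.4%) and sites downstream 24 of 66 (36.4%). A promoter site lay in the promoter window of any gene, and it was counted for the gene with the nearest TSS. In this sense 80 of the 327 nearest genes had a promoter site. A site in a gene's promoter window but nearer to another TSS is missed by this count. Of the 69 tested genes with both kinds of site, 36 rose (52.2%), and of the 132 tested genes without a promoter site, 30 rose (22.7%) and 20 fell (15.2%). Genes nearest to promoter sites rose in 509 of 1441 cases (35.3%), and those nearest to intergenic sites with an exact CArG-box in 5 of 37 (13.5%). No test over sites or genes was made of these shares.

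Several of the large differences belonged to MADS-box genes. Of the 132 genes annotated as MADS-box, 6 were nearest to one of the sites (9 sites in all), 5 of these rose in osd1 vs. wt and none fell, with a median log2 fold change of 2.56. In the whole MADS-box list, 32 of 77 tested genes rose and 4 fell, with a median of 0.72. AGL62, AGL23 and AGL90 were under 0.5 RPKM in wt. They entered the test only through triploid seeds and had to be higher there.

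AGL62, required to keep the endosperm from cellularizing early, had 11.8 and 27.4 RPKM in phe1 phe2 osd1 and 20.8 and 10.4 RPKM in osd1, against 0.1084 and 0.1001 RPKM in wt. Both triploid crosses were above wt in every library, and they overlapped each other. The rise in osd1 vs. wt was 4.66 ± 0.47 on the log2(RPKM + 0.5) scale (SE, limma adjusted p = 0.00136), a scale that understates the change of a gene as low as AGL62 was in wt. Its 2 sites, at 1210 bp upstream and 2623 bp from the TSS beyond its 3′ end, were 731 and 478 bp wide and lay on either side of the gene. The upstream region reached into the promoter window of AGL62, although its centre did not. No shared promoter site had AGL62 as the gene with the nearest TSS.

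AGL23, a type I gene that acts in the female gametophyte and that is on the published list of paternally expressed genes, had 24.0 and 21.2 RPKM in phe1 phe2 osd1 and 22.2 and 15.3 RPKM in osd1, against 0 and 0.499 RPKM in wt. It rose by 4.74 ± 0.36 in osd1 vs. wt (log2 scale, SE, limma adjusted p = 6.1e-04). It also had a promoter site. AGL86 and AGL92, adjacent genes on chromosome 1, are on the same list, and AGL86 had a promoter site as well.

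AGL92 had 17.8 and 5.73 RPKM in phe1 phe2 osd1 and 9.94 and 11.9 RPKM in osd1, against 0.703 and 1.26 RPKM in wt, a rise in osd1 vs. wt of 2.97 ± 0.50 (limma adjusted p = 0.00847). AGL86 had 21.5 and 12.7 RPKM in phe1 phe2 osd1 and 6.19 and 17.3 RPKM in osd1, against 1.32 and 2.83 RPKM in wt, a rise of 2.15 ± 0.54 (limma adjusted p = 0.0328). Every triploid library was above both wt libraries for each of these genes, and the 2 triploid crosses overlapped. Neither gene passed the test without wt replicate 1 (log2 fold change 2.70 for AGL92 and 1.71 for AGL86) or without wt replicate 2 (3.24 and 2.58), and AGL86 did not without osd1 replicate 2 (1.44).

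AGL90 had the most sites of the MADS-box genes, 3, at 1845 and 2101 bp upstream and 3124 bp from the TSS on the other side. Both upstream sites lay within 1 replicate 2 peak. The levels of AGL90 were 0.481 and 2.67 RPKM in phe1 phe2 osd1 and 2.95 and 0.665 RPKM in osd1. Both wt libraries listed it at 0, and it did not pass the test (limma adjusted p = 0.0862 in osd1 vs. wt). AG, the floral organ identity gene AGAMOUS, was the sixth, with a 111 bp site 1645 bp upstream. It had 15.2 and 12.1 RPKM in phe1 phe2 osd1 and 13.2 and 13.8 RPKM in osd1, against 6.05 and 9.18 RPKM in wt, a rise of 0.82 ± 0.23 in osd1 vs. wt (limma adjusted p = 0.0439). That call was lost without any 1 of the 4 osd1 and wt libraries: the log2 fold change was 0.85 and 0.79 without osd1 replicates 1 and 2, and 0.54 and 1.10 without wt replicates 1 and 2.

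**Figure D5:**
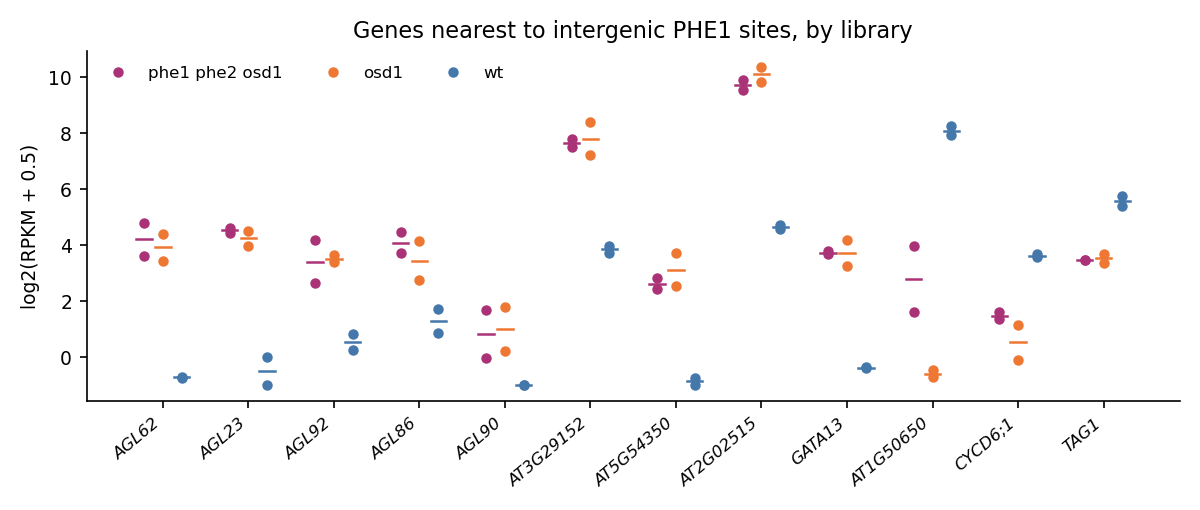
Levels of 12 genes nearest to intergenic PHE1 sites as log2(RPKM + 0.5), with a point per library and a line at the mean of the 2 libraries of each cross. All triploid libraries lie above both wt libraries for the first 9 genes, of which AGL90 did not pass the test, and below them for AT1G50650, CYCD6;1 and TAG1.

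Imprinted genes, which are expressed mainly from the maternal or the paternal allele in the endosperm, were among the genes nearest to the sites. Of 150 genes on the published list of paternally expressed genes, 12 were nearest to a site (14 sites), and in osd1 vs. wt 8 rose and 2 fell, with a median log2 fold change of 1.35. In the whole list 64 of 145 tested genes rose and 21 fell, with a median of 0.61. AGL23 and AT5G54350 were under 0.5 RPKM in wt and entered the test only through triploid seeds. Of 146 genes on the list of maternally expressed genes, 4 were nearest to a site, 1 rose and none fell. In that whole list 25 of 115 tested genes rose and 16 fell. Both lists are of imprinted genes from the literature, as compiled in the study's supplement.

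Among the other genes on the list of paternally expressed genes, AT3G29152 encodes a protein of the lipid-transfer and seed storage 2S albumin superfamily, and its site lay 455 bp from its TSS past its 3′ end. It had 219 and 182 RPKM in phe1 phe2 osd1 and 341 and 147 RPKM in osd1, against 15.3 and 12.7 RPKM in wt, a rise in osd1 vs. wt of 3.96 ± 0.37 (limma adjusted p = 0.00110). AT5G54350, a C2H2 zinc finger gene with a 757 bp site 1087 bp upstream, had 6.59 and 4.87 RPKM in phe1 phe2 osd1 and 12.6 and 5.28 RPKM in osd1, against 0.101 and 0 RPKM in wt, a rise of 3.99 ± 0.41 (limma adjusted p = 0.00151). For both, all triploid libraries exceeded both wt libraries. AT3G29152 also had a promoter site, and AT5G54350 did not.

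Smaller rises on that list were those of AT1G28630 (1.41 ± 0.23), the DUF863 gene AT1G26620 (1.29 ± 0.17) and AL4, an Alfin-like protein with a PHD finger (0.87 ± 0.17). Without wt replicate 1, AT1G28630 (1.30) and AL4 (0.82) did not pass the test, nor did AL4 without wt replicate 2 (0.92). The 2 that fell were AT5G11460 and AT5G54530. AT5G11460, a DUF581 gene with a site 2001 bp upstream, had 9.70 and 11.3 RPKM in phe1 phe2 osd1 and 7.63 and 8.04 RPKM in osd1, against 28.9 and 24.6 RPKM in wt, a fall of 1.71 on the log2 scale in osd1 vs. wt (SE 0.15, limma adjusted p = 9.5e-04). AT5G54530 (DUF538) had a difference of -1.14 ± 0.25 and did not pass without wt replicate 1 (-1.17) or 2 (-1.11). AT3G11310 and AT3G25700 did not pass the test (0.22 ± 0.23 and 0.44 ± 0.32). AT4G04580, the maternally expressed gene that rose, encodes a homeodomain-like protein and had 52.0 and 34.6 RPKM in phe1 phe2 osd1 and 39.1 and 49.5 RPKM in osd1, against 7.83 and 8.25 RPKM in wt. The other maternally expressed genes were NUDT17 (0.08 ± 0.19), AT4G12870 (1.37 ± 0.45, limma adjusted p = 0.0738) and AT5G60800 (-0.07 ± 0.61). Of the genes in this paragraph, AT1G28630, AT1G26620, AT5G54530 and AT4G04580 also had a promoter site.

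Of 909 genes annotated as transcription factors, 15 were nearest to a site, and of the 12 tested, 6 rose in osd1 vs. wt and none fell, while the whole list had 100 of 647 that rose and 95 that fell. GATA13, a zinc finger transcription factor, had 12.4 and 13.3 RPKM in phe1 phe2 osd1 and 17.8 and 9.03 RPKM in osd1, against 0.280 and 0.258 RPKM in wt, a rise of 4.10 ± 0.32 (limma adjusted p = 6.4e-04). Its site, printed above, lay 1210 bp upstream. Of 728 F-box genes, which specify the targets of ubiquitin ligases, 13 were nearest to a site, and of the 6 tested, 4 rose and none fell, against 117 of 365 that rose and 23 that fell in the whole list. Of 315 small cysteine-rich genes, 7 were nearest to a site and 4 were tested, of which 1 rose and none fell, against 97 that rose and 12 that fell among 172 in the whole list. Of the 15 endosperm regulators listed, AGL62 was the single one nearest to a site.

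The largest rises among the other nearest genes were found at sites on either side of a gene. AT2G02515, an uncharacterized gene with a site 634 bp from its TSS past its 3′ end, had 753 and 965 RPKM in phe1 phe2 osd1 and 1331 and 908 RPKM in osd1, against 23.4 and 25.97 RPKM in wt. Its rise in osd1 vs. wt was 5.45 ± 0.22 (limma adjusted p = 1.8e-04), the largest among the nearest genes that passed the test and changed one way in all 4 pairs of libraries. AT1G56620, annotated as an inhibitor of invertase or pectin methylesterase, had 32.4 and 6.89 RPKM in phe1 phe2 osd1 and 51.7 and 15.0 RPKM in osd1, against 0 and 0.419 RPKM in wt, and its replicates differed widely within both triploid crosses. It rose by 5.39 ± 0.85 (limma adjusted p = 0.00647) and did not pass without wt replicate 1 (4.95) or 2 (5.83).

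AT5G42640, a zinc finger gene with a site 1179 bp from its TSS, had 6.67 and 13.9 RPKM in phe1 phe2 osd1 and 20.6 and 8.18 RPKM in osd1, and both wt libraries listed it at 0 (limma adjusted p = 0.00157 in osd1 vs. wt). AT4G16810, annotated with the VEFS-box that marks Polycomb proteins such as FIS2, had 13.0 and 37.1 RPKM in phe1 phe2 osd1 and 22.5 and 14.4 RPKM in osd1, against 0.222 and 0.871 RPKM in wt, a rise of 4.22 ± 0.55 (limma adjusted p = 0.00331) that did not pass without wt replicate 1 (3.76). AT3G10195, a putative membrane lipoprotein, had 18.2 and 29.7 RPKM in phe1 phe2 osd1 and 39.6 and 21.3 RPKM in osd1, against 0.170 and 1.73 RPKM in wt. Of the 8 genes with the largest rises, AGL62 and GATA13 were the ones not also nearest to a promoter site. Among the 8, AGL62, AGL23, GATA13, AT1G56620 and AT5G42640 were under 0.5 RPKM in wt and entered the test only through triploid seeds.

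Genes that fell were led by AT1G50650, which belongs to the Stig1 family of small secreted cysteine-rich proteins. It had 2.54 and 15.0 RPKM in phe1 phe2 osd1 and 0.108 and 0.222 RPKM in osd1, against 302 and 243 RPKM in wt. On the log2 scale it differed by -8.68 ± 0.69 in osd1 vs. wt and by -5.31 ± 0.69 in phe1 phe2 osd1 vs. wt (limma adjusted p = 6.7e-04 and 0.00380). The 3 crosses did not overlap. Its 2 sites lay 2439 and 2692 bp upstream in a gap of 6569 bp, both within 1 replicate 1 peak, and the farther one carried the 14-base run printed first in its set.

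The other genes with large falls had a single intergenic site each, and TAG1 and AT3G09032 had a promoter site as well. CYCD6;1, a D-type cyclin of formative cell divisions in the root, had 2.04 and 2.59 RPKM in phe1 phe2 osd1 and 0.438 and 1.73 RPKM in osd1, against 11.3 and 12.5 RPKM in wt, with a site 2097 bp upstream. TAG1, the acyltransferase that makes the storage lipid triacylglycerol, had 10.6 and 10.7 RPKM in phe1 phe2 osd1 and 12.4 and 9.85 RPKM in osd1, against 54.0 and 42.1 RPKM in wt, with a site 2566 bp upstream. On the log2 scale CYCD6;1 and TAG1 differed between osd1 and wt by -3.10 ± 0.41 and -2.06 ± 0.18 (limma adjusted p = 0.00351 and 8.4e-04). HCF243 (-2.72 ± 0.18), AT3G09032 (-2.47 ± 0.22), NAC048 (-2.36 ± 0.37), the methyltransferase gene IGMT5 (-2.16 ± 0.23) and the SAUR-like gene AT5G10990 (-1.90 ± 0.30) completed the 8 largest falls. The 8 were picked among genes for which both osd1 libraries lay below both wt libraries. Both phe1 phe2 osd1 libraries lay below wt for each of the 8 as well. CYCD6;1 and NAC048 did not pass without wt replicate 1 (-3.16 and -2.38) or 2 (-3.03 and -2.35), nor AT5G10990 without wt replicate 1 (-1.90).

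No nearest gene passed the test between the triploid crosses. In phe1 phe2 osd1 vs. osd1, 0 of the 201 nearest genes rose and 0 fell (limma, adjusted as above), as among all genes tested (0% in either direction). At an unadjusted p under 0.05 there were 7 nearest genes (limma), against 2.76% of all genes. The rank product method, recoded here, called 18 of them up and 16 down at p under 0.05, against 7.74% and 7.11% of all genes. The median log2 fold change was -0.02, against 0.01 for all genes. At 2 libraries per cross, this count does not show that the crosses were alike.

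The 5 nearest genes with the smallest unadjusted p in that comparison were AT1G50650, AT1G76800, AT2G46690, AT3G09032 and AT4G35070. AT1G50650 was higher in phe1 phe2 osd1 than in osd1 by 3.37 ± 0.69 (log2 scale), with the libraries given above. AT1G76800, a vacuolar iron transporter homologue, had 0.478 and 0.564 RPKM in phe1 phe2 osd1, against 1.58 and 1.56 RPKM in osd1, a log2 difference of -1.02 ± 0.25, and wt had 0.379 and 0.467 RPKM. The SAUR-like gene AT2G46690 had 6.60 and 7.05 RPKM in phe1 phe2 osd1, against 12.6 and 11.2 RPKM in osd1, a log2 difference of -0.76 ± 0.19. AT3G09032 (0.79 ± 0.22) and AT4G35070 (0.52 ± 0.19) were higher in phe1 phe2 osd1. AT2G46690, AT3G09032 and AT4G35070 also had a promoter site. In each of the 5 genes the 2 libraries of one cross lay outside the range of the other, which picking the smallest p favours. None passed the limma test after adjustment over all genes (adjusted p = 1).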

How the data were processed

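ChIP-seq of PHE1-GFP siliques and mRNA sequencing of seeds were used here. Per the labels and the methods of the study, the authors aligned ChIP reads to TAIR10 with Bowtie 1.2.2, kept uniquely mapped reads and called peaks in each replicate with MACS2 2.1.1 against its own input, which lowers what can be seen in repeated DNA. The deposited lists hold 2818 and 4858 peaks on chromosomes 1 to 5, with coordinates and no heights, and 12 chloroplast peaks of replicate 2 were left out. Seed reads were mapped with TopHat2 2.1.0, and the deposited RPKM values were computed by the authors with GFOLD. Read depth was not derived from them, so no counting interval is given. The histone ChIP samples were not used here. No column of a table belonged to no sample (0 columns).

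Peaks were intersected with bedtools 2.31.1 and placed on the genes and pseudogenes of RefSeq TAIR10.1, which has the nuclear sequence of TAIR10. A peak's distance was taken from the centre of the shared region. Alignments between central 300 bp windows used BLAST+ 2.17.0 (e-value at most 1e-10). RPKM values were tested with limma 3.58.1 on log2(RPKM + 0.5), in 1 fit over the 6 libraries of the 3 crosses, for genes with a mean of at least 0.5 RPKM in at least 1 cross, with Benjamini-Hochberg adjusted p-values under 0.05. Only spread between the libraries of a cross enters these p-values. Region classes were compared by counts and medians with no test. The site steps and the limma fits were checked on simulated data. Alternatives were other overlaps, annotations, pseudocounts, filters and scalings, each library left out, a replicate block and the rank product.

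Named genes were nearest genes on a list of 15 endosperm regulators or on the imprinted lists; the 8 largest rises and 8 largest falls called by limma in osd1 vs. wt with the same direction in all 4 library pairs; and the 5 smallest p-values in phe1 phe2 osd1 vs. osd1. A further part of the rule, which added AGL90, is not reported here. AG was named after its value had been seen, as the last of 6 MADS-box genes. The sites, lists and tests were chosen with earlier results of these data known.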

Additional observations from a re-analysis of the deposited data

How the results depend on the processing

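The number of sites depended on how a shared region was defined: 373 became 196 when both peaks had to share 50% of their length, 145 with peaks at least as wide as the median of their list, 126 without a near CArG-box (1 mismatch), 109 with promoters of 3 kb, and 473 to 837 with 1 replicate alone. Median GC content (25.9%) was 26.1% and 26.9% with 1 replicate alone. Median width (298 bp) was 418, 543 and 266 bp under the 50% overlap, with wide peaks and with the whole region intergenic, and 322 to 360 bp with 1 replicate. Median distance to the nearest TSS (1580 bp) was 1694, 1504, 1844 and 1954 bp under those 3 settings and with protein-coding genes only, and 1633 to 1644 bp with 1 replicate.

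Without a filter on low values 252 nearest genes were tested in place of 201: 38 rose in osd1 vs. wt (all genes 5.53%) and 32 in phe1 phe2 osd1 vs. wt (5.26%), and 1 fell in phe1 phe2 osd1 vs. osd1 (0.0772%). Of 119 tested genes at the 50% overlap sites, 34 rose and 16 fell in osd1 vs. wt, and 33 and 17 in phe1 phe2 osd1 vs. wt. Both flanking genes, of which 386 were tested, gave 55 that fell in osd1 vs. wt, and 95 that rose and 59 that fell in phe1 phe2 osd1 vs. wt. Of all genes tested, 12.6% rose and 13.4% fell in osd1 vs. wt, and 12.1% rose and 12.5% fell in phe1 phe2 osd1 vs. wt. With 1 library left out, 21 to 58 rose and 10 to 32 fell in osd1 vs. wt, and 17 to 42 rose and 6 to 21 fell in phe1 phe2 osd1 vs. wt. The lowest counts were without wt replicate 1. Without phe1 phe2 osd1 replicate 1, 39 rose, and without its replicate 2, 16 fell. In phe1 phe2 osd1 vs. osd1, 0 to 0 nearest genes passed in either direction, while the rank product gave 18 and 16. The cause of these shifts was not tested.

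With the replicate block, 67 rose and 27 fell in osd1 vs. wt, AT4G12870 passed (limma adjusted p = 0.00835) and AG did not (0.0619). Libraries that share a number had correlations of their deviations of 0.17, -0.01 and -0.004. With 2 libraries per cross, these values cannot decide whether the numbers pair the samples. Leaving out sites under 60 bp, an alternative chosen after the data had been seen, changed no count by more than 1.5 times.

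Of 410 values of named genes under alternatives, 357 kept direction and side of the threshold and 45 lost the call, 25 of them without a wt library and 7 without a filter. Of the 30 named genes called in osd1 vs. wt, 14 lost the call without at least 1 of the wt libraries. With 1 library left out, the log2 fold change in osd1 vs. wt ran from -0.11 to 0.28 for NUDT17, from -0.039 to 0.48 for AT3G11310 and from -1.05 to 0.91 for AT5G60800, so its sign turned in these genes, none of which had passed the test. Without peak scores or read depth, weak peaks cannot be told from strong ones.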
